A study of Mus musculus with 28 samples.

Results

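Entry into S phase is gated by the D cyclins, their kinase partners and the inhibitors of these complexes, and the mRNAs of 10 such genes were followed here in mouse germ cells. They are the cyclins Ccnd1, Ccnd2 and Ccnd3, the kinases Cdk4 and Cdk6, the Cip/Kip inhibitors Cdkn1a, Cdkn1b and Cdkn1c, and the Ink4 inhibitors Cdkn2c and Cdkn2d. The genes were chosen by name and role, with earlier results of these data known. All 10 were found by symbol among the 43253 gene entries of the tables, and all 10 were among the 17519 genes that passed the expression filter.

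A D cyclin binds Cdk4 or Cdk6, and the active complex phosphorylates the retinoblastoma protein, which releases E2F factors that drive S phase genes. Ink4 proteins bind the kinases and keep the cyclin off, while Cip/Kip proteins bind assembled cyclin and kinase complexes, chiefly those of Cdk2. In the testis, spermatogonia divide by mitosis and later enter meiosis, a step that needs Stra8, a gene that retinoic acid induces.

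The cells came from male mice with intact Stra8 (WT) or with Stra8 knocked out (KO), both from a cross of C57BL/6 x 129s4/SvJae. Every mouse was given WIN 18,446, which blocks retinoic acid synthesis, for 7 days, so that no group is free of the drug. The 0 h mice were taken then, and the others were injected with retinoic acid and taken 12 h, 18 h, 48 h, 72 h, 96 h or 120 h afterwards. Sorting by the eGFP signal of PIWIL2-eGFP gave the germ cells, and their polyA RNA was sequenced on an Ion Proton instrument. Each of the 14 groups had 2 libraries, 28 in all, and neither the age of the mice nor whether a group's libraries came from separate animals is in the labels, so the p-values speak only of the spread between libraries, which may be technical. In sorted bulk cells, fewer cells of a type and less RNA per cell cannot be told apart.

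Library totals ran from 5752475 to 10135820 counts in WT and from 913055 to 9507928 in KO, where replicate 2 at 72 h, 96 h and 120 h held 1078460, 913055 and 1030025. Stra8 was at 7.66 to 1043 CPM (counts scaled to the library total) in WT and at 0 to 62.2 CPM in KO, and at each time both KO libraries were below both WT libraries. The highest KO value was that of replicate 1 at 48 h, with 417 Stra8 reads. Mitochondrial transcripts made up 1.98 to 3.06% of counts in the WT libraries numbered 1, 3.21 to 6.79% in those numbered 2 and 4.56 to 8.56% in KO. Of the germ cell markers, the summed level of 8 spermatogonial genes was 3675 to 6463 CPM in WT and 5051 to 6464 CPM in KO. Sertoli markers (10 genes) summed to 43.4 to 235 CPM in WT and 61.4 to 860 CPM in KO, peritubular myoid markers (5 genes) to 8.32 to 28.9 and 22.2 to 51.9 CPM, and the Leydig marker Insl3 was at 0 in every library. Other sums in WT and KO were 4.93 to 9.18 and 4.79 to 15.8 CPM for 6 Leydig genes, 8.22 to 41.9 and 16.4 to 38.3 CPM for 4 endothelial genes, 0.623 to 4.68 and 1.10 to 5.56 CPM for the 4 of 5 leukocyte genes in the tables, and 0.0994 to 1.80 and 0.566 to 2.35 CPM for 5 spermatid genes.

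Across the time course, all 10 genes changed in WT at some time after retinoic acid, where 37.3% of all genes did, by an F test over the 6 later times in edgeR's quasi-likelihood model. In KO, 5 of the 10 did, against 15.8% of all genes: Ccnd1, Ccnd2, Cdk6, Cdkn1b and Cdkn2c. A change is called here at an adjusted p under 0.05, with Benjamini-Hochberg adjustment over all genes tested. Every later time is set against the same 0 h libraries of its genotype, so the changes at different times share them.

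Ccnd2, the D cyclin that growth of the ovarian follicle and full testis size depend on, rose early. Its mRNA (gene at chr6:127125162-127152193, minus strand of GRCm38) stood at 133 and 112 CPM in the WT libraries at 0 h, at 928 and 867 CPM at 12 h and at 475 and 526 CPM at 18 h. By 48 h it was back at 115 and 150.5 CPM, followed by 119.7 and 120.4 CPM at 72 h, 85.3 and 82.7 CPM at 96 h and 86.8 and 46.2 CPM at 120 h. The 12 h and 18 h libraries thus lay far above all others and the 96 h and 120 h libraries below all others. On the log2 scale Ccnd2 rose by 2.89 ± 0.25 (SE) at 12 h (adjusted p = 1.36e-07) and by 2.00 ± 0.24 at 18 h (adjusted p = 4.82e-06), and fell by 0.83 ± 0.24 at 120 h (adjusted p = 0.0104). The fall at 120 h was not called without WT 0 h replicate 1 (adjusted p = 0.0760) or WT 120 h replicate 2 (adjusted p = 0.197).

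The same pulse was present without Stra8. In KO, Ccnd2 was at 132 and 148 CPM at 0 h, 968 and 1207 CPM at 12 h, 619 and 1025 CPM at 18 h and 225 and 182 CPM at 48 h. It then stood at 139.9 and 174 CPM at 72 h, 87.6 and 124 CPM at 96 h and 82.0 and 70.9 CPM at 120 h. The rises of 2.99 ± 0.25 at 12 h (adjusted p = 1.41e-07) and 2.62 ± 0.25 at 18 h (adjusted p = 7.19e-07) were called. Both KO libraries lay above both WT libraries at 5 of the 7 times and overlapped them at 0 h and 120 h. As the mean over the times, Ccnd2 was higher in KO by 0.37 ± 0.09 on the log2 scale (adjusted p = 0.00261), and edgeR called no single time, the nearest being 18 h at 0.78 ± 0.23 (adjusted p = 0.0599). The 18 h difference was called by DESeq2 (adjusted p = 0.0304), and in edgeR with no expression filter (0.0154), with a term for the replicate number within each genotype, called the replicate block within each genotype and added after seeing the data (0.0318), with reads recovered from the deposited CPM in place of the counts of the 3 shallow KO libraries, called recovered reads (0.0482), and without KO 18 h replicate 1, the lower of the pair (0.0297).

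Ccnd1, the D cyclin that mitogen signals commonly induce, had its lowest WT level at the time when Ccnd2 had its highest. In WT it stood at 89.1 and 78.3 CPM at 0 h, 48.8 and 52.2 CPM at 12 h, 65.0 and 58.5 CPM at 18 h and 166 and 185 CPM at 48 h. It then reached 189 and 192 CPM at 72 h, 322 and 423 CPM at 96 h and 284 and 301 CPM at 120 h. Ordered by level, the times ran 12 h, 18 h, 0 h, 48 h, 72 h, 120 h and 96 h, and no neighbouring pair of times had overlapping libraries. Ccnd1 fell by 0.72 ± 0.17 at 12 h (adjusted p = 0.00692), and rose by 1.06 ± 0.17 at 48 h (adjusted p = 0.000202), 1.22 ± 0.17 at 72 h (adjusted p = 0.000108), 2.15 ± 0.17 at 96 h (adjusted p = 2.13e-07) and 1.86 ± 0.17 at 120 h (adjusted p = 4.23e-07). The 12 h fall was not called without replicate 1 of WT at 0 h (adjusted p = 0.0734) or at 12 h (adjusted p = 0.0620).

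In KO the range of Ccnd1 was narrower. Its levels were 95.1 and 95.7 CPM at 0 h, 70.0 and 68.3 CPM at 12 h, 92.0 and 76.7 CPM at 18 h and 108 and 114 CPM at 48 h. They went on to 144 and 157 CPM at 72 h, 186 and 284 CPM at 96 h and 178 and 216 CPM at 120 h. Both KO libraries at 12 h were below both at 0 h, a change of -0.43 ± 0.17 that was not called (adjusted p = 0.125). Its difference from the WT change at 12 h was 0.29 ± 0.24 (adjusted p = 0.964). Both KO libraries were above both WT libraries at 0 h, 12 h and 18 h and below both at 48 h, 72 h, 96 h and 120 h, with no overlap at any time. Ccnd1 was the 1 gene with this arrangement among the 17519 tested, or 0.00571%, a pattern described only after its values had been seen. In KO, Ccnd1 rose at 96 h (1.26 ± 0.17, adjusted p = 3.89e-04) and 120 h (1.02 ± 0.17, adjusted p = 0.00285), and the 120 h rise was not called without KO 0 h replicate 1 (adjusted p = 0.0897), KO 0 h replicate 2 (adjusted p = 0.114) or the shallow KO 120 h replicate 2 (adjusted p = 0.0720).

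The time course of Ccnd1 differed between the genotypes by the interaction test (F = 10.4, adjusted p = 0.0329), as it did for 0.108% of all genes and for 0 of the other 9 members. Of these, Cdkn1b had an unadjusted p under 0.05 (unadjusted p = 0.0218, adjusted p = 0.393), and DESeq2 likewise called 1 member. None of the 6 later times passed alone, where KO minus WT in the change from 0 h ran from 0.36 ± 0.24 at 18 h to -0.89 ± 0.24 at 96 h. Set directly against WT, KO cells had less Ccnd1 at 96 h (-0.73 ± 0.17, adjusted p = 0.0163) and 120 h (-0.68 ± 0.17, adjusted p = 0.00954). The mean over the times was -0.19 ± 0.06 (adjusted p = 0.0243), with the sign changing between 18 h and 48 h. Leaving out 1 library could end each call: at 96 h WT replicate 2 (adjusted p = 0.109) or KO replicate 1 (0.30), at 120 h WT replicate 2 (0.0922) or KO replicate 1 (0.106), and for the mean WT 18 h replicate 1 (0.0633) or KO 96 h replicate 1 (0.0553). The interaction was not called in 15 of the 28 fits that each left out 1 library, where its adjusted p ran from 0.00890 to 0.0937. The 15 were either library of WT at 12 h and 18 h and of KO at 0 h, 12 h, 72 h and 120 h, WT 48 h replicate 2, KO 18 h replicate 1 and KO 48 h replicate 1. In the annotation 23.4% of the exon sequence of Ccnd1 (chr7:144929931-144939925, minus strand of GRCm38) is shared with LTO1 on the other strand, and whether the counting used strand is not given in the sources used here.

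Ccnd3, the D cyclin most used by lymphoid cells, was lower at 18 h than at 0 h in both genotypes. In KO the F test over the 6 later times did not call it (adjusted p = 0.109). In WT its mRNA (gene at chr17:47505051-47599691, plus strand) was at 137 and 99.4 CPM at 0 h, 67.3 and 74.0 CPM at 12 h, 54.5 and 53.2 CPM at 18 h and 83.7 and 78.0 CPM at 48 h, and between 45.2 and 89.4 CPM in the 6 later libraries. In KO it was at 140.1 and 114 CPM at 0 h, 77.4 and 78.5 CPM at 12 h and 67.0 and 53.5 CPM at 18 h, and between 53.8 and 113 CPM in the 8 later libraries. Ccnd3 fell at 18 h in WT (-1.16 ± 0.27, adjusted p = 0.00497) and in KO (-1.01 ± 0.27, adjusted p = 0.0194), and at 120 h in WT (-1.0 ± 0.27, adjusted p = 0.00652). KO and WT overlapped at 5 of the 7 times, and the mean difference was 0.15 ± 0.10 (adjusted p = 0.268). With recovered reads it was called at 0.26 (adjusted p = 0.0094), and without the shallow KO libraries it was 0.28. At 120 h both KO libraries were above both WT libraries, and the difference was 0.65 ± 0.27 (adjusted p = 0.110). That difference was called with recovered reads (0.89, adjusted p = 0.00407) and with the replicate block within each genotype (0.62, 0.0477). Without the shallow libraries it was 0.95. All 3 falls were lost without 0 h replicate 1 of the genotype, the higher of its pair. Without it the adjusted p was 0.104 and 0.0957 at 18 h and 120 h in WT and 0.264 at 18 h in KO. Other libraries also ended these calls when left out, namely WT 18 h replicate 2 (0.0706), WT 120 h replicate 2 (0.118), KO 18 h replicate 1 (0.0945) and KO 18 h replicate 2 (0.218).

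**Figure D1:**
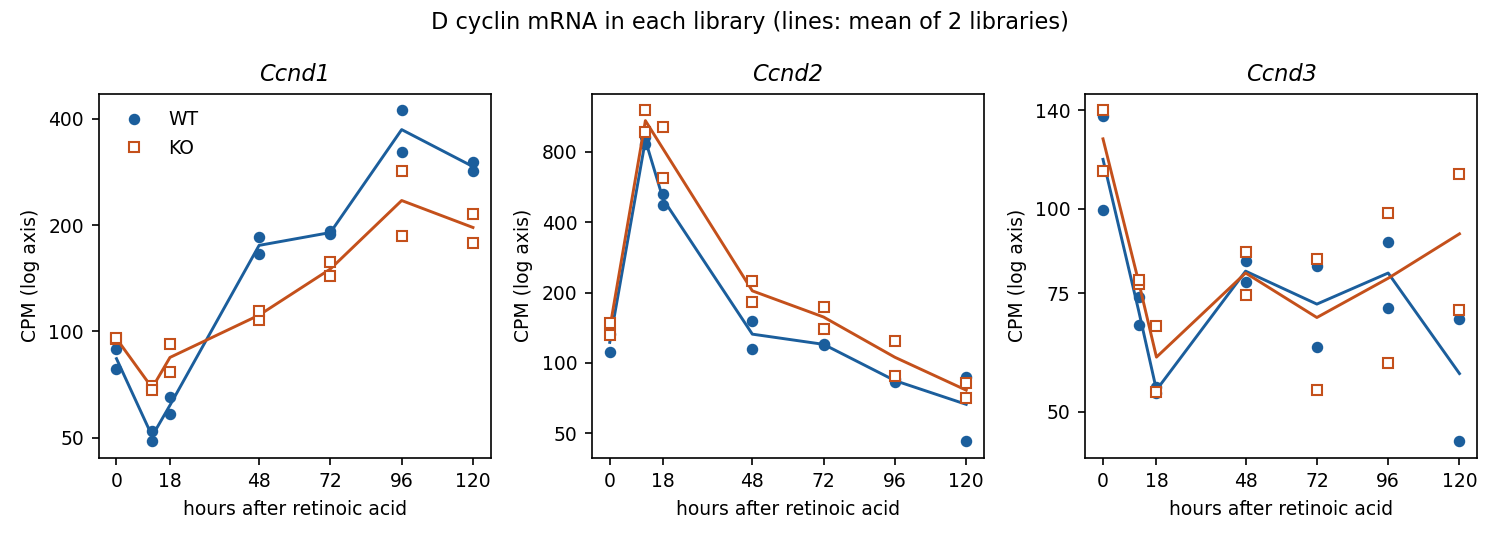
CPM of Ccnd1, Ccnd2 and Ccnd3 (log axis) against hours after retinoic acid, with 1 point per library (WT filled circles, KO open squares) and lines through the mean of the 2 libraries of a group. Ccnd2 peaks at 12 h in both genotypes, and the KO squares of Ccnd1 lie above the WT circles up to 18 h and below them from 48 h.

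Levels of different genes can be set side by side only per length, so CPM was divided by the merged exon length in kb. On that scale Ccnd1 made up 38.8 and 41.8%, Ccnd2 29.1 and 29.8% and Ccnd3 32.1 and 28.5% of the D cyclin mRNA in the WT libraries at 0 h. At 12 h Ccnd2 alone made up 84.5 and 82.5% in WT and 81.3 and 84.5% in KO. At 120 h Ccnd1 made up 78.0 and 86.4% in WT and 63.7 and 74.6% in KO. With these lengths the leading D cyclin was Ccnd2 at 12 h and Ccnd1 at 120 h in both genotypes. At 48 h the Ccnd1 share was 61.8 and 61.2% in WT and 41.4 and 45.5% in KO, where Ccnd2 still made up 43.2 and 36.15%. These shares depend on the length used. With the longest coding transcript of each gene, a choice made after seeing the data, Ccnd3 came to 59.2 and 55.0% at 0 h in WT, while Ccnd2 at 12 h in WT was at 76.6 and 73.7% and Ccnd1 at 120 h was at 62.2 and 73.7% in WT and 41.8 and 56.3% in KO. On that scale Ccnd3 led in KO replicate 1 at 120 h, with 46.8%.

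**Figure D2:**
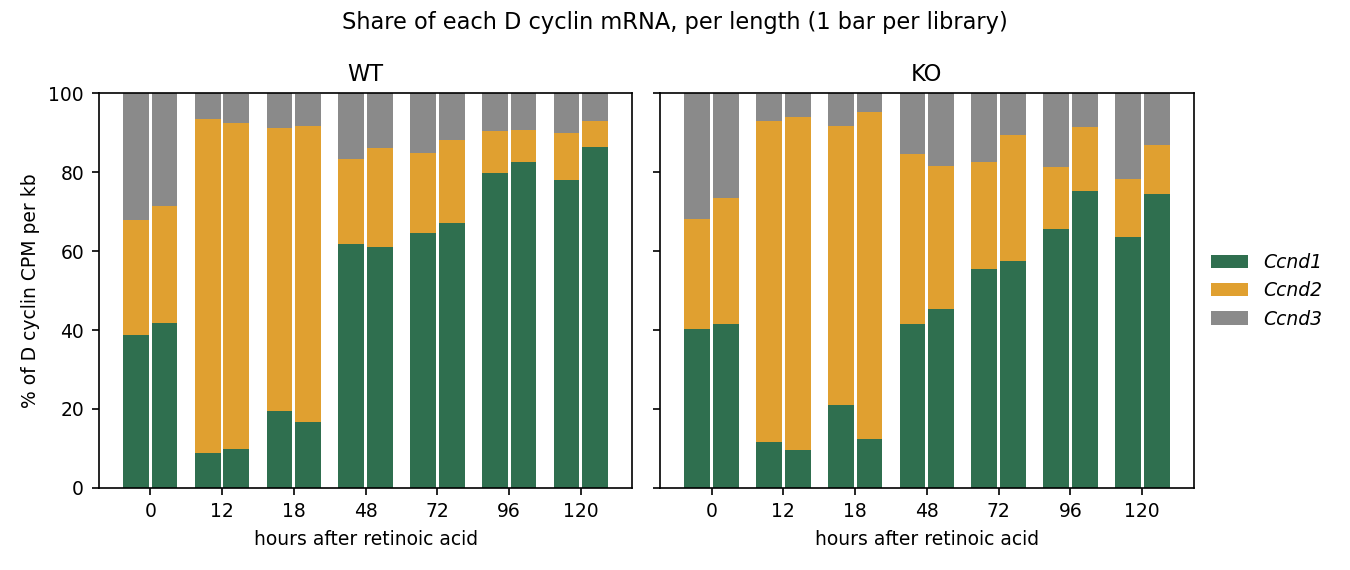
Share (%) of Ccnd1, Ccnd2 and Ccnd3 in the summed D cyclin level per kb of merged exons, with 1 stacked bar per library at each time in hours after retinoic acid, WT at the left and KO at the right. Ccnd2 fills 81.3 to 84.5% of the 4 bars at 12 h, and Ccnd1 fills 78.0 and 86.4% of the WT bars and 63.7 and 74.6% of the KO bars at 120 h.

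Cdk4 and Cdk6 are the catalytic partners of the D cyclins. Per kb of exon, Cdk4 made up between 89.8 and 96.2% of their summed level over all 28 libraries. In WT, Cdk4 (gene at chr10:127063534-127067920, plus strand) was at 160.1 and 234 CPM at 0 h, 113 and 154 CPM at 12 h, 129 and 157 CPM at 18 h and 151 and 155 CPM at 48 h. It was at 115 and 179.9 CPM at 72 h, 135 and 163 CPM at 96 h and 104 and 78.8 CPM at 120 h, the lowest of the course. The fall at 120 h was called (-1.07 ± 0.21, adjusted p = 0.000546). Replicate 1 was below replicate 2 at every WT time but 120 h.

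Cdk4 was higher in KO. It stood there at 219 and 205 CPM at 0 h, 205 and 183 CPM at 12 h, 198 and 178 CPM at 18 h and 191 and 201 CPM at 48 h. Later values were 225 and 233 CPM at 72 h, 228 and 231 CPM at 96 h and 158 and 182 CPM at 120 h. At all 6 times after retinoic acid both KO libraries were above both WT libraries, and at 0 h they lay between them. Cdk4 was higher in KO by 0.49 ± 0.08 as the mean over the times (adjusted p = 4.50e-05) and by 0.80 ± 0.21 at 120 h (adjusted p = 0.0134). The 120 h call was lost without WT replicate 2 (adjusted p = 0.177), KO replicate 1 (0.0912) or the shallow KO replicate 2 (0.0635). In the annotation 19.7% of Cdk4 exon sequence is shared with Tspan31 on the other strand.

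The proximal promoter of Cdk4 is shown as an example of the 3 member windows that hold the core letters of a retinoid site, AGGTCA. The bases come from RefSeq on GRCm38.p6 (chr10:127063285-127063533, plus strand, up to the annotated start) and the capitals mark that site and a GC box (GGGCGG, here on the minus strand as CCGCCC), which do not overlap:
Cdk4: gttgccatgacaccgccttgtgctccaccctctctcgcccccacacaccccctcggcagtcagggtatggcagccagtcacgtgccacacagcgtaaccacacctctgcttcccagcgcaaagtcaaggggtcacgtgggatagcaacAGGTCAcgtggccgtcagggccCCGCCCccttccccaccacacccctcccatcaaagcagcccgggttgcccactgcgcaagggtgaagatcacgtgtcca
Promoters from RefSeq were matched for 7 of the 10 genes, by symbol. Ccnd1, Ccnd2 and Cdkn1c had none, so no motif was searched for them. Motifs were searched on both strands in the 250 bases before each start. AGGTCA occurred in 3 of the members' 10 windows, 1 each of Cdk4, Ccnd3 and Cdkn2c, and in 14% of 32851 such windows and GGGCGG in 32.7%. The direct repeat of AGGTCA with 5 bases between, a form that retinoic acid receptors bind, occurred in 0.00913% of windows and in none of the members' 10 windows. A match describes the letters only, and whether this site bears on Cdk4 mRNA was not tested.

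Cdk6 was low per kb and fell late in WT. Its levels in WT (gene at chr5:3341485-3531008, plus strand) were 59.4 and 44.9 CPM at 0 h, 55.2 and 43.9 CPM at 12 h, 42.45 and 33.4 CPM at 18 h, 70.9 and 67.2 CPM at 48 h and 32.4 and 66.5 CPM at 72 h. They ended at 28.7 and 27.8 CPM at 96 h and 22.1 and 16.9 CPM at 120 h, below every earlier WT library. Cdk6 fell by 0.88 ± 0.25 at 96 h (adjusted p = 0.0116) and by 1.37 ± 0.26 at 120 h (adjusted p = 3.48e-04). The 96 h call was lost without WT 0 h replicate 1 (adjusted p = 0.122) or WT 96 h replicate 2 (0.0563).

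In KO, Cdk6 stood at 40.8 and 51.9 CPM at 0 h, 87.5 and 71.9 CPM at 12 h, 40.05 and 38.1 CPM at 18 h and 73.8 and 63.8 CPM at 48 h. It was at 61.2 and 51.0 CPM at 72 h, 46.2 and 49.3 CPM at 96 h and 36.7 and 32.0 CPM at 120 h. At 12 h and 48 h both KO libraries were above both 0 h libraries, and the 12 h rise was called (0.82 ± 0.25, adjusted p = 0.0402), but not after leaving out any 1 of the 4 libraries compared (adjusted p from 0.0715 to 0.415). Cdk6 was higher in KO as the mean over the times by 0.32 ± 0.10 (adjusted p = 0.0122), with both KO libraries above both WT libraries at 12 h, 96 h and 120 h. That call was lost without KO 72 h replicate 1 (adjusted p = 0.0523) or KO 120 h replicate 1 (0.0604).

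All 3 Cip/Kip inhibitors were higher without Stra8 as the mean over the times, where 37.5% of all genes were called in either direction. Cdkn1b (chr6:134920401-134925513, plus strand), which encodes p27 and holds quiescent cells out of the cycle, fell steeply after retinoic acid. In WT it went from 43.9 and 32.8 CPM at 0 h to 4.44 and 3.07 CPM at 12 h, 3.68 and 3.44 CPM at 18 h and 6.21 and 2.93 CPM at 48 h. It was at 11.5 and 13.9 CPM at 72 h, 9.30 and 6.08 CPM at 96 h and 11.35 and 7.35 CPM at 120 h, so that no later WT library reached the 0 h libraries. The log2 changes were -3.31 ± 0.36 at 12 h (adjusted p = 1.77e-06), -3.45 ± 0.36 at 18 h (5.69e-07) and -3.04 ± 0.35 at 48 h (4.84e-06). Later they were -1.55 ± 0.32 at 72 h (adjusted p = 0.00269), -2.29 ± 0.34 at 96 h (3.48e-05) and -1.98 ± 0.33 at 120 h (1.12e-04).

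KO and WT libraries overlapped at 0 h. In KO, Cdkn1b was at 30.1 and 40.2 CPM at 0 h, 6.14 and 8.27 CPM at 12 h, 6.70 and 6.58 CPM at 18 h and 7.46 and 6.59 CPM at 48 h. It came to 18.9 and 13.9 CPM at 72 h, 23.5 and 17.5 CPM at 96 h and 23.2 and 35.0 CPM at 120 h, where the higher library is the shallow one. The falls at 12 h, 18 h and 48 h (-2.27 ± 0.35, -2.32 ± 0.35 and -2.26 ± 0.35) were called (adjusted p = 2.31e-04, 2.09e-04 and 8.43e-04), and the values of -1.03 ± 0.34, -0.72 ± 0.33 and -0.33 ± 0.33 at 72 h, 96 h and 120 h were not. Both KO libraries were above both WT libraries at all 6 times after retinoic acid. Cdkn1b was higher in KO by 0.80 ± 0.13 as the mean over the times (adjusted p = 6.29e-05), by 1.42 ± 0.35 at 96 h (adjusted p = 0.0214) and by 1.49 ± 0.34 at 120 h (adjusted p = 0.00558). Without WT 96 h replicate 2 (adjusted p = 0.114) or KO 96 h replicate 1 (0.385) the 96 h call was lost, and without WT 120 h replicate 2 (0.0978) that of 120 h.

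The Cdkn1b promoter is shown because its mRNA fell further than that of any other member. Its 250 bases end at the annotated start (GRCm38.p6, chr6:134920151-134920400, plus strand) and the capitals mark 2 CCAAT boxes and 1 GC box, GGGCGG, with no overlap between them:
Cdkn1b: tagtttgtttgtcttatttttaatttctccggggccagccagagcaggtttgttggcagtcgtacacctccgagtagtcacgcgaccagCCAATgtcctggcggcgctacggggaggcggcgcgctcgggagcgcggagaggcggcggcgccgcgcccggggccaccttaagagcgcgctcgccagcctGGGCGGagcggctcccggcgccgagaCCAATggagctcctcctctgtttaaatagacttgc
CCAAT occurred in 33.8% of all such windows. The FOXO motif GTAAACA, present in 3.17% of windows, and the E2F motif TTTNNCGC, present in 4.28%, were not found in this one. Cdkn1b shares no exon sequence with another gene in the annotation.

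Cdkn1a (chr17:29090976-29100727, plus strand), which encodes p21, the inhibitor that p53 induces, was at low levels throughout. Levels in WT were 9.61 and 6.88 CPM at 0 h, 4.14 and 5.22 CPM at 12 h and 2.58 and 3.07 CPM at 18 h, the lowest pair. They were 5.59 and 6.65 CPM at 48 h, 7.57 and 4.99 CPM at 72 h, 5.62 and 6.95 CPM at 96 h and 12.2 and 7.85 CPM at 120 h. The fall at 18 h was called (-1.58 ± 0.34, adjusted p = 0.00314), though not without WT 0 h replicate 1 (adjusted p = 0.0708) or WT 18 h replicate 1 (0.0565).

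In KO the 18 h libraries were close to those at 0 h. Cdkn1a was at 10.6 and 9.30 CPM at 0 h, 8.19 and 5.51 CPM at 12 h, 10.1 and 9.21 CPM at 18 h and 9.39 and 6.89 CPM at 48 h. It was at 10.95 and 9.27 CPM at 72 h, 10.5 and 6.57 CPM at 96 h and 17.4 and 19.4 CPM at 120 h. The change from 0 h to 18 h was 0.01 ± 0.33 (adjusted p = 0.991), and the difference from the WT change at that time was 1.59 ± 0.47 (adjusted p = 0.191). Against WT, Cdkn1a was higher in KO at 18 h by 1.84 ± 0.35 (adjusted p = 0.00229, and 0.0742 without WT 18 h replicate 1) and as the mean over the times by 0.73 ± 0.13 (adjusted p = 1.11e-04).

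The promoter of the shorter Cdkn1a transcripts is shown because it was the only member window with the letters CNCCTCAG, a motif reported for STRA8 (here on the minus strand, as CTGAGGGG). The window (GRCm38.p6, chr17:29093519-29093768, plus strand) also holds 2 GC boxes (GGGCGG), 1 of which overlaps the STRA8 motif and is in the same run of capitals:
Cdkn1a: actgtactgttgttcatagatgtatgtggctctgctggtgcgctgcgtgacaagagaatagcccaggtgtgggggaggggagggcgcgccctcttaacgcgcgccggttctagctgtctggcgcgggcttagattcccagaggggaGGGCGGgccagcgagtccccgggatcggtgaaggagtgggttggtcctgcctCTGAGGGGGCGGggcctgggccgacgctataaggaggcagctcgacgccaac
CNCCTCAG occurred in 6.42% of all windows. This window lies over an exon of AC167363.2, which runs on the other strand.

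Cdkn1c (chr7:143458339-143461050, minus strand), the imprinted gene for p57, had its highest group mean at 18 h in both genotypes. In WT it was at 17.3 and 33.9 CPM at 0 h, 19.7 and 33.3 CPM at 12 h, 34.4 and 43.8 CPM at 18 h and 19.5 and 21.6 CPM at 48 h. Its later values were 9.49 and 13.4 CPM at 72 h, 9.07 and 20.2 CPM at 96 h and 16.5 and 11.8 CPM at 120 h. In KO it was at 27.98 and 27.7 CPM at 0 h, 43.0 and 40.2 CPM at 12 h, 56.8 and 51.5 CPM at 18 h and 31.0 and 26.3 CPM at 48 h, and between 17.5 and 29.4 CPM in the 6 later libraries. As for Cdk4, replicate 1 was below replicate 2 at every WT time but 120 h. From 0 h to 18 h the change was 0.58 ± 0.33 in WT (adjusted p = 0.297) and 1.03 ± 0.33 in KO (adjusted p = 0.0536), neither called by edgeR as fitted. The KO value was called by DESeq2 (0.0365), with a replicate block (0.0398), with that block within each genotype (0.00772), with no expression filter (0.0195), with recovered reads (0.0395) and with only the samples compared (0.00355). Cdkn1c fell by 1.12 ± 0.34 at 72 h in WT (adjusted p = 0.0311), and was higher in KO by 1.25 ± 0.36 at 72 h (adjusted p = 0.0466) and by 0.65 ± 0.13 as the mean over the times (adjusted p = 3.76e-04). The 72 h difference was lost on leaving out any 1 of its 4 libraries (adjusted p from 0.0613 to 0.245), and the WT fall without WT 72 h replicate 1 (0.188) or WT 0 h replicate 2 (0.388). Of the Cdkn1c exon sequence, 30.7% is shared with Gm44732 on the other strand.

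**Figure D3:**
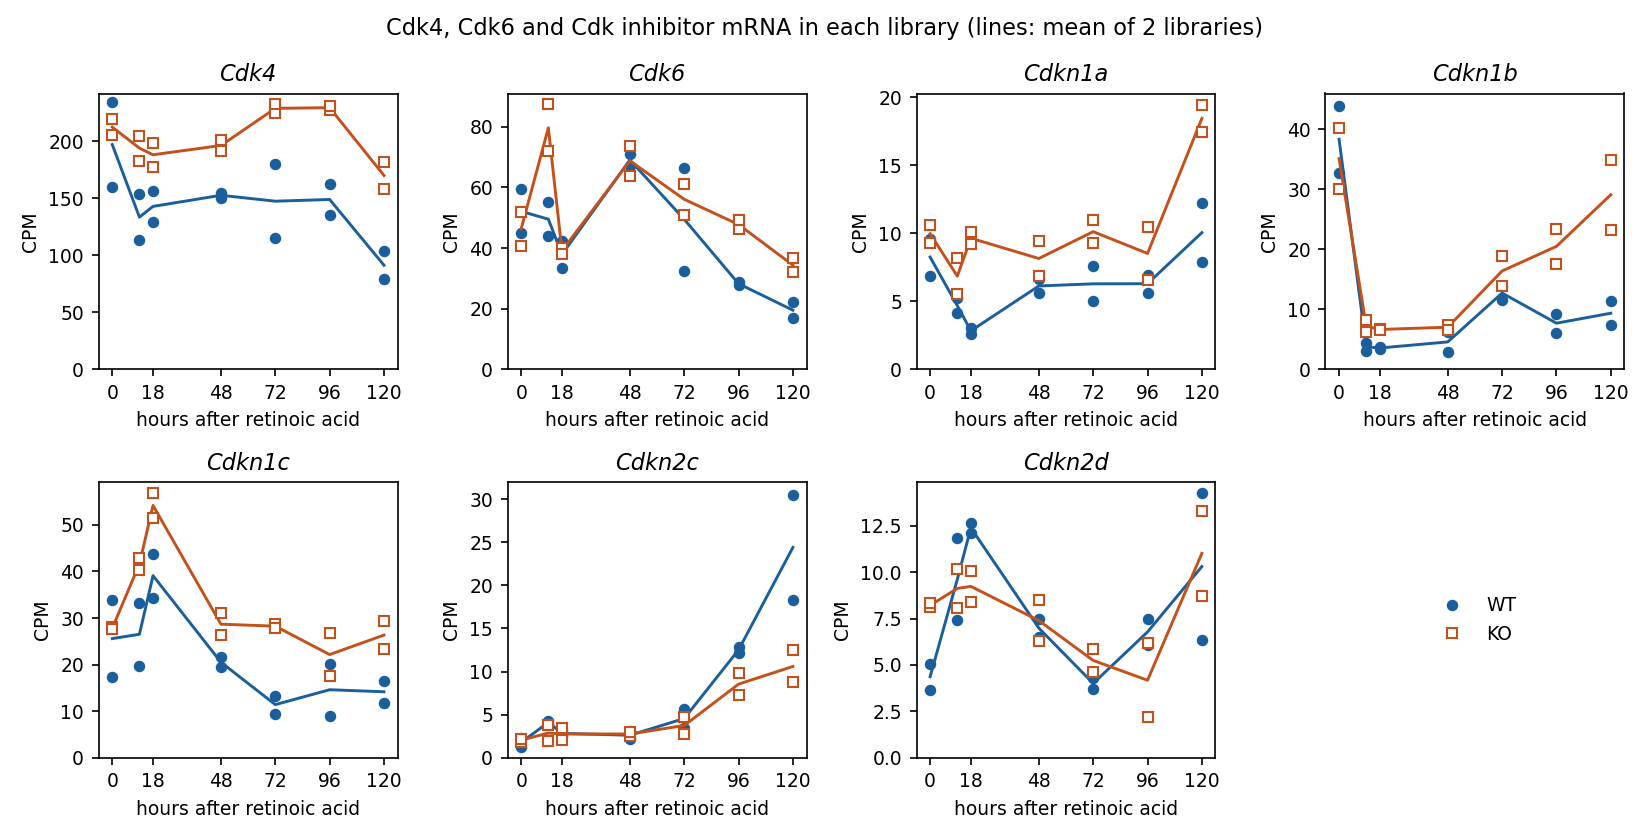
CPM of Cdk4, Cdk6 and the 5 Cdk inhibitors against hours after retinoic acid, with 1 point per library (WT filled circles, KO open squares) and lines through the mean of the 2 libraries of a group. Cdkn1b drops by 12 h in both genotypes and climbs further back in KO, Cdk4 squares lie above the circles at all 6 times after retinoic acid, and Cdkn2c climbs from 72 h with WT above KO at 120 h.

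Of the Ink4 inhibitors, Cdkn2c (chr4:109660876-109667189, minus strand), which encodes p18, had the widest range of group means among the inhibitors (3.18 on the log2(CPM + 1) scale). In WT it was at 1.26 and 2.29 CPM at 0 h, 3.95 and 4.30 CPM at 12 h, 2.49 and 3.19 CPM at 18 h and 3.11 and 2.13 CPM at 48 h. It then climbed through 5.64 and 3.47 CPM at 72 h and 12.2 and 12.9 CPM at 96 h to 18.3 and 30.5 CPM at 120 h. The WT libraries at 96 h and 120 h lay above all earlier ones. The rises were 1.42 ± 0.45 at 72 h (adjusted p = 0.0373), 2.84 ± 0.44 at 96 h (5.69e-05) and 3.86 ± 0.44 at 120 h (2.40e-06), from 11 and 14 reads in the 0 h libraries. The 72 h rise was not called without WT 0 h replicate 1 (adjusted p = 0.436) or WT 72 h replicate 1 (0.289), by DESeq2 (0.0512), with no expression filter (0.0803), with recovered reads (0.0644) or with only the samples compared (0.234).

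Cdkn2c rose in KO as well. It was at 1.89 and 2.20 CPM at 0 h, 3.82 and 1.93 CPM at 12 h, 2.01 and 3.51 CPM at 18 h and 2.53 and 2.99 CPM at 48 h. It was at 4.72 and 2.78 CPM at 72 h, 7.24 and 9.86 CPM at 96 h and 12.5 and 8.74 CPM at 120 h, the second value of each of these times resting on 3 to 9 reads. The rises at 96 h (1.98 ± 0.47, adjusted p = 0.0296) and 120 h (2.44 ± 0.46, adjusted p = 0.00698) were called. Set against WT, Cdkn2c was lower in KO at 120 h (-1.23 ± 0.40, adjusted p = 0.0393). That difference was lost without WT 120 h replicate 2 (adjusted p = 0.356), KO 120 h replicate 1 (0.113) or KO 120 h replicate 2 (0.182). Leaving out any 1 of the 4 libraries compared ended the KO rise at 96 h (adjusted p from 0.110 to 0.351), and 3 libraries ended that at 120 h: KO 0 h replicate 1 (0.210), KO 0 h replicate 2 (0.126) and KO 120 h replicate 1 (0.252). The mean difference over the times was -0.32 ± 0.17 (adjusted p = 0.139).

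Cdkn2d (chr9:21288410-21291407, minus strand), which encodes p19, had an early rise in WT. It was there at 3.66 and 5.08 CPM at 0 h, 7.40 and 11.8 CPM at 12 h and 12.1 and 12.6 CPM at 18 h, then between 3.69 and 7.48 CPM up to 96 h and at 14.25 and 6.35 CPM at 120 h. In KO it was at 8.10 and 8.32 CPM at 0 h and between 2.19 and 13.3 CPM later, with no change called. The WT rises were 1.48 ± 0.38 at 18 h (adjusted p = 0.0117) and 1.29 ± 0.38 at 120 h (adjusted p = 0.0141). Both ended without WT 0 h replicate 1 (adjusted p = 0.195 and 0.188). The 18 h rise also ended without WT 18 h replicate 1 (0.0513) or replicate 2 (0.0615), and the 120 h rise without WT 120 h replicate 1 (0.356). KO minus WT was 0.89 ± 0.39 at 0 h (adjusted p = 0.710) and 0.09 ± 0.15 as the mean over the times (adjusted p = 0.653).

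Counted over the 10 members, WT at 12 h had 1 higher and 2 lower calls, where 10.9% of all genes were called in either direction. There were 2 higher and 3 lower at 18 h (11.9% of all genes), 1 higher and 1 lower at 48 h (12.8%) and 2 higher and 2 lower at 72 h (12.9%). There were again 2 higher and 2 lower at 96 h (26.7%), and 3 higher and 5 lower at 120 h (28.9%). In WT at 72 h DESeq2 called 3 members in place of 4. The replicate numbers pair the WT libraries, and with a replicate block within each genotype edgeR called 32 member changes in WT in place of 26. The added ones were Ccnd3 at 12 h (-0.72, adjusted p = 0.0219) and 72 h (-0.67, 0.0283), Cdk4 at 12 h (-0.55, 0.0327), Cdkn2d at 12 h (1.14, 0.0399) and Cdkn1c at 96 h (-0.83, 0.0172) and 120 h (-0.71, 0.0383). The 120 h count is the highest in WT, with Ccnd1, Cdkn2c and Cdkn2d higher and Ccnd2, Ccnd3, Cdk4, Cdk6 and Cdkn1b lower. In KO there were 2 higher and 1 lower at 12 h (8.57% of all genes), 1 higher and 2 lower at 18 h (8.93%) and 1 lower at 48 h (4.51%). There were 0 called at 72 h (0.491%), then 2 higher at 96 h (1.75%) and the same 2, Ccnd1 and Cdkn2c, higher at 120 h (0.953%). At 72 h in KO, where edgeR called 0 members, 4 had an unadjusted p under 0.05 and DESeq2 called 1, Ccnd1. An unadjusted p under 0.05 at 120 h was found for 4 members in KO and 9 in WT. At 120 h the median log2 change of the members was -0.82 in WT (all genes -0.07) and -0.19 in KO (all genes -0.04). The KO contrasts at 72 h, 96 h and 120 h rest on 1 deep and 1 shallow library each. Without the shallow ones the KO rises of Ccnd1 at 96 h (adjusted p = 0.0523) and 120 h (0.0513), of Cdkn2c at 96 h (0.183) and of Cdk6 at 12 h (0.0600) were not called, nor were the differences from WT of Cdkn1c at 72 h (0.142) and of Cdk4 (0.0714) and Cdkn2c (0.167) at 120 h.

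**Figure D4:**
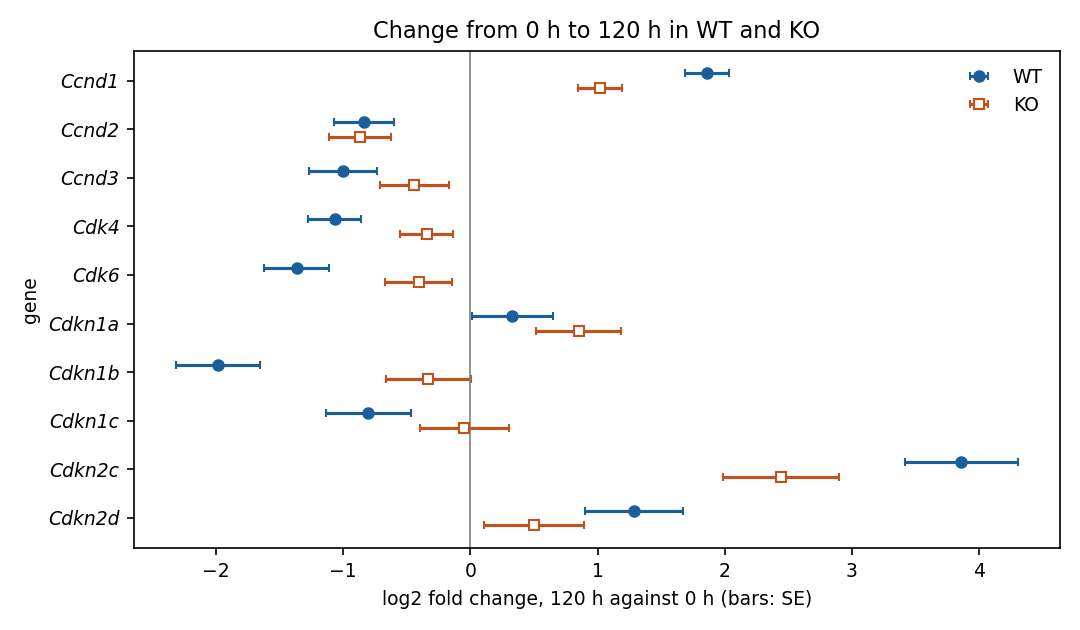
Log2 fold change from 0 h to 120 h for the 10 members (points, with bars of 1 SE), WT as filled circles and KO as open squares. In WT, 8 of the 10 changes were called, with Cdkn2c at 3.86 and Cdkn1b at -1.98 as the extremes, and in KO those of Ccnd1 (1.02) and Cdkn2c (2.44) were called. Of all genes, 28.9% were called in WT and 0.953% in KO.

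Between the genotypes, edgeR called 0 of the 10 members at 0 h, where 0% of all genes were called, 1 member (Cdkn2d) had an unadjusted p under 0.05 and DESeq2 called 0. At 12 h 0 members were called (1.18% of all genes, 4 members with an unadjusted p under 0.05, DESeq2 0) and at 48 h 0 (0.308% of all genes, 2 members with an unadjusted p under 0.05, DESeq2 0). At 18 h 1 member was higher in KO (4.14% of all genes called, 5 members with an unadjusted p under 0.05, DESeq2 2, with Ccnd2 besides Cdkn1a), at 72 h 1 higher (4.70%), at 96 h 1 higher and 1 lower (4.47%) and at 120 h 2 higher and 2 lower (15.4%). As the mean over the 7 times, which uses the same libraries again, 6 were higher in KO (Ccnd2, Cdk4, Cdk6, Cdkn1a, Cdkn1b and Cdkn1c) and 1 lower (Ccnd1), where 37.5% of all genes were called. Both KO libraries were above both WT libraries at 6 or 7 of the times for 2 members, Cdk4 and Cdkn1b, and for 4.60% of all genes. With the replicate block within each genotype, an alternative added after seeing the data, the 7 times gave 14 member calls in place of 8. The members' median difference was 0.34 for the mean over the times and 0.70 at 120 h, against -0.02 for all genes in both.

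Some markers of somatic cells were also higher in KO for the mean over the times, where 37.5% of all genes were called in either direction. These were 6 of 10 Sertoli markers, 2 of 5 myoid markers (Myh11 by 1.24 ± 0.19 and Des by 1.52 ± 0.20) and 1 of 4 endothelial markers, Pecam1, and the others of these lists did not pass. The Leydig markers tested, Star at 0.04 ± 0.15 and Cyp11a1 at -0.05 ± 0.73, did not pass in edgeR (unadjusted p = 0.898 and 0.948), nor did the leukocyte markers Csf1r at 1.01 ± 0.73 and Cd68 at -0.45 ± 0.30 (unadjusted p = 0.183 and 0.149). Of 8 spermatogonial markers 5 were higher in KO and 2, Dazl and Kit, were lower. The highest Sertoli sum was that of the shallow KO library at 72 h. The part of these cells in the members' differences was not tested.

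**Figure D5:**
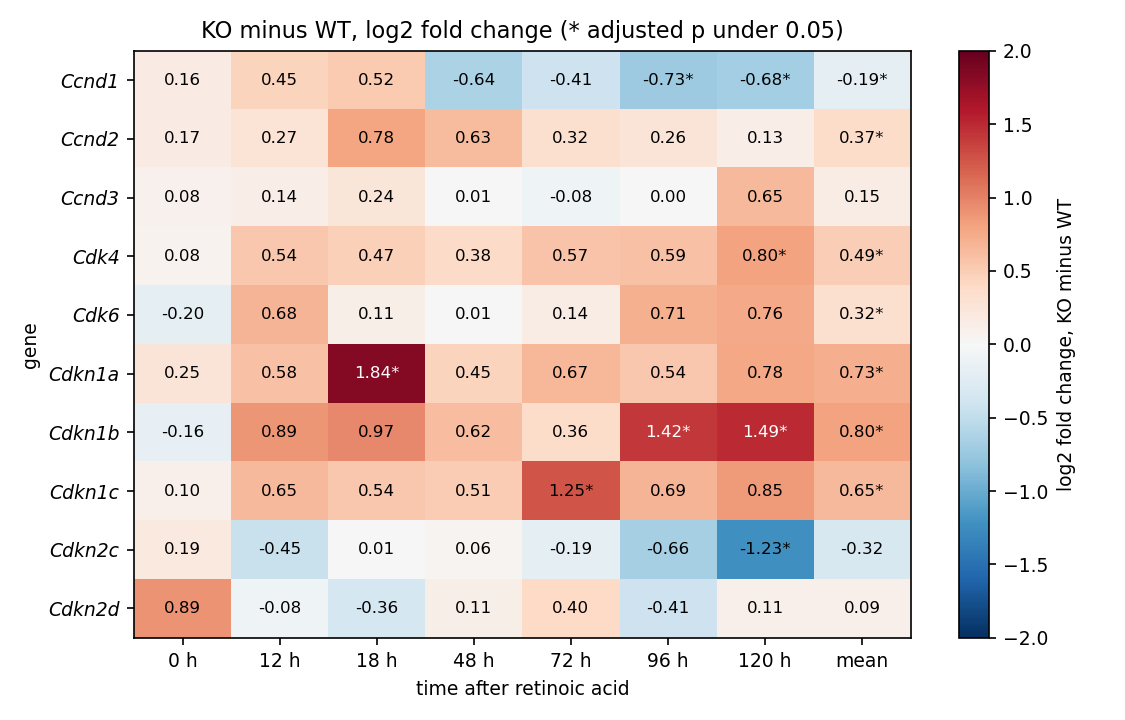
Log2 fold change of KO against WT for each member (rows) at each time after retinoic acid and as the mean over the 7 times (columns), red where KO was higher and blue where WT was higher, with a star where the adjusted p was under 0.05. The 3 Cip/Kip rows are red from 12 h on, and Ccnd1 turns from red to blue between 18 h and 48 h.

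Around the members, 27 further genes of the G1/S pathway were listed and 26 were tested, Myc being at 0 to 1.37 CPM. In WT at 120 h, 12 were higher than at 0 h and 2 lower, where 28.9% of all genes were called in either direction. Their median log2 change was 0.58 (all genes -0.07). The 4 largest were E2f2 (4.16 ± 0.48), an activating E2F, Kit (3.46 ± 0.39), the receptor that marks differentiating spermatogonia, and Ccne1 (2.21 ± 0.23) and Ccne2 (1.86 ± 0.38), the E cyclins that activate Cdk2. In KO at 120 h, 3 were higher (E2f2, Kit and Rbl1) and 23 did not pass, where 0.953% of all genes were called. Their median was 0.18 (all genes -0.04).

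Against WT, the listed genes gave 3 higher and 9 lower calls among the 26 tested for the mean over the times, beside 37.5% of all genes, with a median of -0.07 (all genes -0.02). Higher in KO were Mycn (0.75 ± 0.07), a Myc family factor, Cdkn2a (0.44 ± 0.14), which encodes the Ink4 inhibitor p16 and Arf, and Cdc37 (0.42 ± 0.08), a chaperone partner that helps fold Cdk4. Lower in KO were the E2F genes E2f2 (-0.72 ± 0.18), E2f5 (-0.55 ± 0.11) and E2f4 (-0.40 ± 0.08), and the pocket protein genes Rbl1 (-0.52 ± 0.09) and Rb1 (-0.33 ± 0.11). Also lower were Ccne2 (-0.69 ± 0.15), its partner Cdk2 (-0.29 ± 0.07), the phosphatase gene Cdc25a (-0.22 ± 0.08) and Kit (-0.44 ± 0.13). Mycn had the smallest interaction p of all genes (adjusted p = 5.30e-04). It fell by 1.56 ± 0.19 in WT at 12 h, where the KO value of 0.20 ± 0.19 was not called, and it was higher in KO by 1.74 ± 0.20 at 12 h and 2.24 ± 0.20 at 18 h. At 120 h, where 15.4% of all genes were called in either direction, 4 of 6 proliferation genes were lower in KO. They were Pcna (-1.66 ± 0.46), Mki67 (-1.61 ± 0.38), Top2a (-1.31 ± 0.20) and Cdk1 (-1.13 ± 0.29). None of the 6 was called between the genotypes at an earlier time, and 3 were lower in KO for the mean over the times.

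The genes with the pattern most like a member's were found by Pearson's r over the 14 group means of log2(CPM + 1), among 11549 genes, as a description. For Ccnd1 they were Arpc2 (r = 0.968), Dmrtb1 (0.961) and Gm1141 (0.953), and for Ccnd2 Elovl5 (0.990), Ankrd39 (0.978) and Iqgap3 (0.976). For Ccnd3 the likeness was looser, with Neil2 (0.914), Ccdc6 (0.896) and Mgmt (0.895). For Cdkn2c they were Mgat5b (0.982), Rnf19b (0.970) and Agpat1 (0.964). Between members, r was taken only for pairs that include Ccnd1, Ccnd2, Ccnd3 or Cdkn2c. Among these pairs, Ccnd1 and Ccnd2 had r = -0.833, Cdk6 and Cdkn2c -0.770 and Ccnd1 and Cdkn2c 0.758. Cdkn1c had r = 0.738 with Ccnd2 and -0.738 with Ccnd1. The 14 points share the time course and, in KO at 72 h, 96 h and 120 h, the shallow libraries.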

How the data were processed

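PolyA RNA of sorted germ cells was sequenced in 28 libraries, 2 for each of 14 groups, and the 10 members were followed by symbol. Counts by gene symbol were deposited by the authors as a first and a second table, with 1 library of each group in either. Bowtie, TopHat, Cufflinks and mm10 are named, per the submitters' processing notes, while their versions, the program that counted reads and whether it used strand are not given in the sources used here. In another 2 deposited tables, named for FPKM, the authors' values are CPM: 25 of 28 columns equalled a count column over its total within 0.001 CPM, WT under the same number and KO under the other number. The other 3, KO at 72 h, 96 h and 120 h, gave whole reads within 0.1 read (recovered reads, totals 4479729, 4190650 and 4122223), and which values are right for these groups is not known here. Counts were used throughout, numbered as in the count tables, and CPM was computed from plain totals. Entries with date-like names (27) were left out.

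Groups were taken from the labels. The tests ran in edgeR 4.0.16 under R 4.3.3 (filterByExpr, TMM scaling, 14 group means, robust quasi-likelihood tests, Benjamini-Hochberg over the 17519 genes kept). Log2 fold changes are given with their SE. Replicate minus replicate deviations of different times correlated across genes at 0.258 to 0.517 in all 21 pairs of WT times, so the numbers pair WT libraries. They correlated at -0.138 to 0.567 (median 0.05) between KO times and at -0.209 to 0.108 between WT and KO. The highest KO value was above that of any WT pair, so the numbers may pair libraries of some KO times. Pairing over all KO times, or of WT with KO, was not shown. The members, gene lists and tests were chosen with earlier results of these data known. Beyond the members, genes of the G1/S list were named where they passed KO against WT as the mean over the times or were among the 4 largest changes in WT at 120 h. Proliferation genes and those most like Ccnd1, Ccnd2, Ccnd3 and the inhibitor of widest range were named too (3 each, mean of at least 5 CPM). Cell type markers were summed for spermatogonia, Sertoli, Leydig, myoid, leukocyte, endothelial and spermatid genes. Exon lengths and overlaps came from GENCODE for GRCm38 and promoters from RefSeq. Alternatives were DESeq2 1.42.0, its size factors in edgeR, no expression filter, a replicate block, that block within each genotype (added after seeing the data), only the samples compared, recovered reads, leaving out the 3 libraries under 2000000 counts and leaving out each library. The fitting script was tested on simulated data. Library totals of 913055 to 10135820 set the precision, a count of 3 being worth 0.296 to 3.29 CPM.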

Additional observations from a re-analysis of the deposited data

Results flagged for a closer look

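The time course of Ccnd1 differed between WT and KO by a test of the difference itself, the genotype by time interaction over the 6 later times (adjusted p = 0.0329, edgeR's quasi-likelihood test). KO libraries lay above WT libraries at 0 h, 12 h and 18 h and below them at 48 h, 72 h, 96 h and 120 h. No other member passed this test.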

How the results depend on the processing

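No called fold change of a member changed sign under any alternative run. Of the member calls in KO against WT at each time, 8 were made, 14 with the replicate block within each genotype (an alternative added after seeing the data) and 1 with only the samples of the comparison. Leaving out 1 library in turn gave 4 to 9 calls for KO against WT at each time (4 without KO 120 h replicate 1, 5 without WT 120 h replicate 2 or KO 120 h replicate 2), 6 to 12 for KO at later times against 0 h (reported 11, 6 without KO 0 h replicate 1 and 7 without replicate 2), 21 to 28 for WT at later times (reported 26) and 0 to 1 for the interaction (0 in 15 of 28). With the plain replicate block, the counts were 10 members changed in WT and 7 in KO at any time, 28 and 12 calls at later times, 7 members for the mean, 8 calls for KO against WT at each time and 1 interaction. The numbers pair the WT libraries but were not shown to pair KO libraries over all times, or WT with KO. With the block within each genotype there were 32 calls in WT and 15 in KO at later times and 7 for the mean, and no member call was lost. Without the 3 shallow KO libraries there were 8 calls in KO at later times and 6 in KO against WT, and with the recovered reads 14 and 10. The mean difference of Ccnd1 was not called with no filter (adjusted p = 0.10) or with recovered reads (0.0523). The KO fall of Ccnd2 from 0 h to 120 h, not called as fitted, was called with no filter (adjusted p = 0.00835) and with recovered reads (0.0365). The 120 h difference of Cdkn2c was not called with no filter (0.0551), recovered reads (0.141), only the samples compared (0.112) or without the shallow libraries (0.167). TMM scaling moved all genes by at most 0.0978 on the log2 scale. Depth limits Cdkn1a, Cdkn2c and Cdkn2d most, with 2 to 20 reads in the shallow KO libraries.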
